A study of Mus musculus with 19 samples.

Results

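Complement is a cascade of plasma and cell-surface proteins that marks targets for phagocytosis, recruits leukocytes and can lyse membranes. Its alternative pathway turns over on its own: a fragment of C3 binds factor B, the resulting convertase cleaves more C3, properdin holds that convertase together, and membrane proteins of the host cell take it apart. Most circulating components come from the liver, and neutrophils and monocytes are known local sources of several of them. The 5 genes described here cover these roles. C3 encodes the central component, Cfb encodes factor B, the protease zymogen of the convertase, and Cfp encodes properdin. Cd55 encodes decay accelerating factor, which dissociates convertases, and Cr1l encodes Crry, a membrane regulator of mouse cells that limits C3 activation. They were chosen as the rows of the count table that carry these symbols, 5 of 38887 genes in all, and all 5 passed the expression filter. The 5 genes were chosen by their measured levels in the 4 groups, so their differences are given as a description, without tests.

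RNA was sequenced from 2 kinds of myeloid-derived suppressor cells (MDSC) of mouse spleen, myeloid cells that restrain T cell responses. PMN-MDSC are neutrophil-like cells, taken as CD11b+ Ly6G+ cells with intermediate Ly6C, and M-MDSC are monocyte-like cells, taken as CD11b+ Ly6G- cells with high Ly6C. The groups were newborn PMN-MDSC (5 libraries), adult PMN-MDSC (6 libraries), newborn M-MDSC (5 libraries) and adult M-MDSC (3 libraries). Newborns were taken at 7 days and adults at 6 to 8 weeks, all groups came from spleen, and the labels used here give no strain, genotype or drug treatment. The protocols name both magnetic beads and a cell sort for the isolation and do not say whether mice were pooled or whether replicates came from separate mice, so any spread between libraries may be technical in part.

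Libraries of 2 labelled batches were present in every group, and depth followed batch. The shallowest and deepest of the 10 batch 1 libraries held 827744 and 2965896 counts in total, and those of the 9 batch 2 libraries held 14026193 and 45135933. A set of 5 PMN-MDSC pairs, each of 1 batch 2 and 1 batch 1 library (newborn 37 and 2, newborn 38 and 3, adult 32 and 1, adult 33 and 2, adult 34 and 3), deviated together from the means of their group and batch, with correlations across 5080 genes of 0.518 to 0.864, against -0.709 to 0.260 in the 10 other pairs. Deviations within a group and batch sum to 0, so the contrast with the other pairs is partly fixed by this centring. With 2 newborn batch 1 libraries, the newborn values are mirror images (0.518 and -0.518, 0.621 and -0.621). The 5 matched pairs may share a source, so age differences of the 5 genes in PMN-MDSC are also given without the batch 1 partners. Of the other complement genes, the age calls lost without these partners are named with their gene. Levels are given as CPM, counts relative to the TMM-scaled library size. Ly6g, the neutrophil surface marker used for isolation, averaged 213 CPM in newborn and 19.6 CPM in adult PMN-MDSC, and 0.877 CPM in newborn and 0.277 CPM in adult M-MDSC. Ccr2, a marker of classical monocytes, averaged 612 CPM in newborn and 552 CPM in adult M-MDSC, against 4.93 CPM in newborn and 14.4 CPM in adult PMN-MDSC. Summed over 12 B cell markers, levels ran from 662 to 1017 CPM in newborn and from 4389 to 6828 CPM in adult PMN-MDSC, and from 179 to 299 CPM in newborn and from 1049 to 2500 CPM in adult M-MDSC. Counts of Kdm5d, a Y-linked gene, were present in all 10 newborn libraries and were 0 in all 9 adult libraries, so age and the mix of sexes cannot be told apart. In bulk libraries, fewer cells of a type and less RNA per cell cannot be told apart either.

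The sequences just upstream of C3 and Cd55 are shown because these are the members whose libraries did not overlap between ages in either cell type. RefSeq's promoter table (GRCm38.p6) held 4 of the 5 genes, C3, Cfp, Cd55 and Cr1l. The 250 bases before each gene's start are printed 5′ to 3′ on the gene's own strand, which is the minus strand for both, at chr17:57228137-57228386 for C3 and chr1:130462745-130462994 for Cd55.
C3: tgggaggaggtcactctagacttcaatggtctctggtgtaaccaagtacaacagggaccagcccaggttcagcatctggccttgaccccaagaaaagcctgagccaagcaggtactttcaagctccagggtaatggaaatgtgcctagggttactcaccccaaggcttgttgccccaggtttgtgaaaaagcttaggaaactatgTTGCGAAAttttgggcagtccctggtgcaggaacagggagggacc
Cd55: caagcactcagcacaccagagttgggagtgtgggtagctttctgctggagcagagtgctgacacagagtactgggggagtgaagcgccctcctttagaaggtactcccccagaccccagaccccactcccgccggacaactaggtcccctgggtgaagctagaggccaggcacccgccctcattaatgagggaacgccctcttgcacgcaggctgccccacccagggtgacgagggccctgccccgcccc
Capitals mark the only match to TTGCNNAA, letters of the C/EBP motif, 45 to 38 bases before the C3 start. The same letters on either strand occurred in 9.57% of 32817 windows of this length. The other motifs searched on both strands were those of NF-kB (in 1.41% of windows), TGANTCA for AP-1 (6.75%), TTCNNNGAA for GAS (7.01%), GAGGAAG for ETS (10.6%), TGACGTCA for CRE (1.55%) and TATAAA for TATA (12.4%). Neither window held any of these, and the Cd55 window held no C/EBP match. A match is a description of letters and not evidence of binding.

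C3, the component on which all complement pathways converge, was the most abundant of the 5 genes per exon length in newborn cells and differed most with age in PMN-MDSC. C3 (ENSMUSG00000024164) lies on the minus strand of chr17:57203970-57228136 (GRCm38), spans 5143 exonic bases and has the microRNA gene Mir6978 within its locus. Newborn PMN-MDSC replicates 2, 3, 37, 38 and 39 had 3101, 4158, 3176, 4144 and 3201 CPM. Adult PMN-MDSC had a lowest value of 237 CPM, a median of 242 CPM and a highest value of 286 CPM. Every newborn library therefore lay far above every adult library, with 3556 ± 544 CPM in newborn (SD, n = 5) and 251 ± 19.5 CPM in adult PMN-MDSC (SD, n = 6). The fitted log2 difference, newborn minus adult, was 3.84 ± 0.16 (SE), a 14.3-fold higher level in newborns. It was 3.81 within batch 1, 3.90 within batch 2 and 3.89 without the batch 1 partners.

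In M-MDSC the same gene was higher in newborns by a smaller factor. Newborn M-MDSC replicates 1, 2, 3, 77 and 79 had 2493, 3311, 3123, 1669 and 2303 CPM. Adult M-MDSC replicates 1, 3 and 28 had 1191, 1060 and 1116 CPM. The lowest newborn library, replicate 77, still exceeded the highest adult library. Means were 2580 ± 660 CPM in newborn (SD, n = 5) and 1122 ± 65.8 CPM in adult M-MDSC (SD, n = 3). The log2 difference was 1.20 ± 0.18, or 2.29-fold, with 1.39 within batch 1 and 0.90 within batch 2. The age difference in M-MDSC minus that in PMN-MDSC was -2.65 ± 0.22. Ordered by mean, C3 was highest in newborn PMN-MDSC, then newborn M-MDSC, adult M-MDSC and adult PMN-MDSC, and only the libraries of the highest neighbours, newborn PMN-MDSC and newborn M-MDSC, overlapped. M-MDSC exceeded PMN-MDSC in adults by a log2 difference of 2.13 ± 0.16, while in newborns M-MDSC lay below PMN-MDSC by a log2 difference of -0.52 ± 0.15 with overlapping libraries.

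Most neutrophil markers were also higher in newborns, called for 10 of 12 genes in PMN-MDSC and 9 of 12 in M-MDSC by edgeR's quasi-likelihood test. The marker Csf3r was called lower in newborn PMN-MDSC. Summed over 12 neutrophil markers, levels ran from 101772 to 114218 CPM in newborn and from 10462 to 11153 CPM in adult PMN-MDSC. C3 amounted to 2.78 to 3.94% of that sum in newborn and 2.16 to 2.61% in adult PMN-MDSC. In M-MDSC it amounted to 22.7 to 56.0% of the sum in newborns and 96.0 to 178% in adults. Within newborn M-MDSC, replicates 2 and 3 had both the highest marker sums (14596 and 12419 CPM) and the highest C3, and replicate 77 had the lowest of both (3187 CPM of markers). The other groups did not repeat this order. In adult M-MDSC, replicate 1 had the lowest sum (669 CPM) and the highest C3 (1191 CPM). In newborn PMN-MDSC, replicate 37 had the highest sum (114218 CPM) at 3176 CPM of C3, and replicate 3 had the highest C3 (4158 CPM) at a sum of 105591 CPM. The part of these markers in the C3 differences was not tested.

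**Figure D1:**
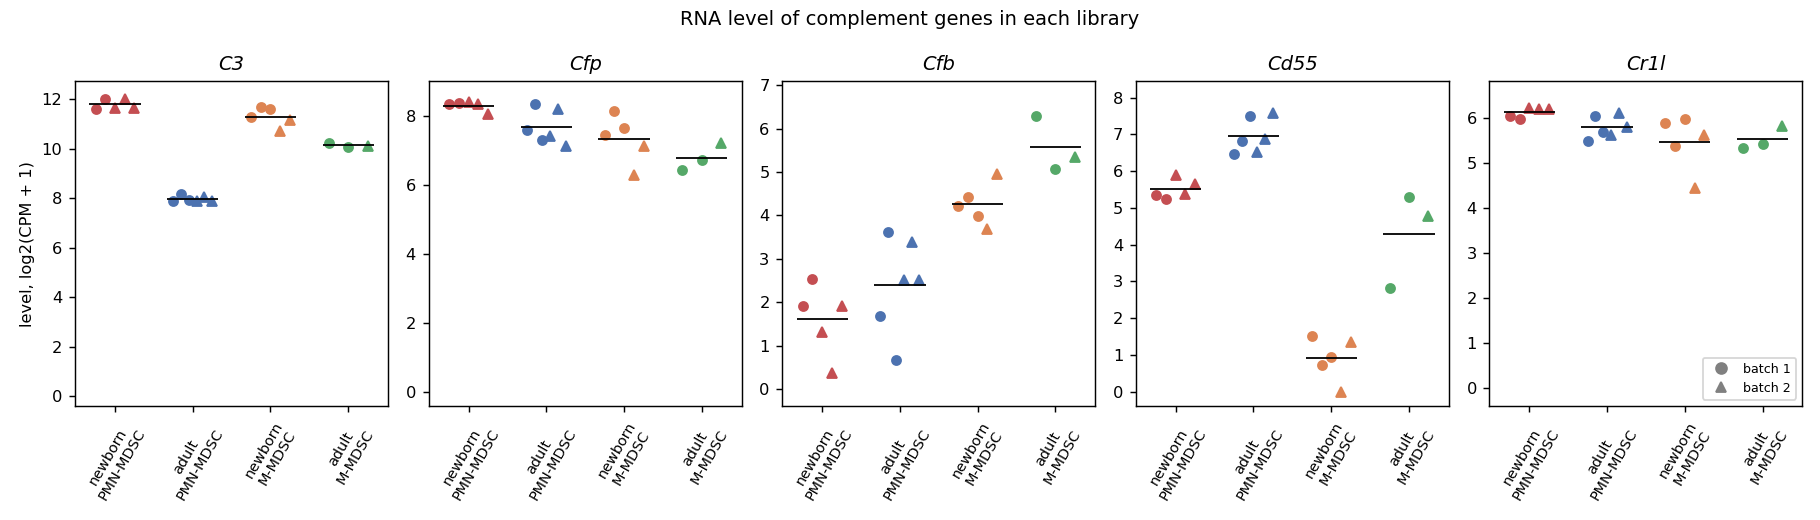
Level of each gene in each library, as log2(CPM + 1), by group; circles are batch 1, triangles are batch 2, the line is the group mean of these log values, and each panel has its own vertical scale. C3 libraries of newborn PMN-MDSC (3101 to 4158 CPM) lie above those of adult PMN-MDSC (237 to 286 CPM), and Cd55 libraries of newborn M-MDSC lie at 0 to 1.86 CPM.

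Cfp, the gene of properdin, which neutrophils are known in humans to store in granules, was detected in every library and varied within groups as much as between ages. Cfp (ENSMUSG00000001128) lies on the minus strand of chrX:20925454-20931555. Newborn PMN-MDSC replicates 2, 3, 37, 38 and 39 had 322, 328, 337, 322 and 262 CPM. Adult PMN-MDSC had a lowest value of 140.0 CPM, a median of 181 CPM and a highest value of 321 CPM. The 2 highest adult libraries, replicates 2 and 33 at 321 and 294 CPM, reached into the newborn range. The log2 difference was 0.59 ± 0.27, with 0.52 and 0.68 within batches 1 and 2, and 0.66 without the batch 1 partners.

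Replicates 2 and 33 of adult PMN-MDSC are a matched pair and were also the highest of that group for C3, Cfb and Cr1l. Their summed levels of 10 splenic macrophage markers were 3216 and 3304 CPM, against 1498 to 1764 CPM in the other adult PMN-MDSC libraries. The part of these markers in the Cfp, Cfb and Cr1l levels was not tested.

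In M-MDSC, Cfp had 172, 280, 200.1, 77.0 and 138 CPM in newborn replicates 1, 2, 3, 77 and 79. Adult M-MDSC replicates 1, 3 and 28 had 85.6, 105 and 147 CPM. The groups overlapped, and the log2 difference of 0.56 ± 0.33 was not the same in sign in both batches, at 1.18 within batch 1 and -0.38 within batch 2, where a single adult library stood against 2 newborn libraries. Mean levels ordered from newborn PMN-MDSC (314 ± 29.9 CPM, n = 5) through adult PMN-MDSC (212 ± 76.3 CPM, n = 6) and newborn M-MDSC (174 ± 75.3 CPM, n = 5) to adult M-MDSC (113 ± 31.5 CPM, n = 3), with SD, and each pair of neighbours in this order overlapped.

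Cfb, whose product is the catalytic partner of C3b, was higher in M-MDSC than in PMN-MDSC and, among M-MDSC, lower in newborns. Cfb (ENSMUSG00000090231) lies on the minus strand of chr17:34856374-34862518, beside C2, and the locus Gm20547, on the same strand, overlaps both, so reads could be divided between them. Gm20547 had counts in only 1 library of each group. These were 57 counts (3.23 CPM) in newborn and 48 counts (3.15 CPM) in adult PMN-MDSC, and 6 and 4 counts in newborn and adult M-MDSC. By library size, the newborn PMN-MDSC library was replicate 38, which held 5 counts of Cfb (0.283 CPM), the lowest of its group. The adult M-MDSC library was replicate 1, which had the highest Cfb of its group (77.9 CPM). The others were adult PMN-MDSC replicate 32 and newborn M-MDSC replicate 2, with 4.66 and 20.5 CPM of Cfb, neither the lowest nor the highest of their groups. The part of read division in the Cfb levels was not tested. Newborn M-MDSC replicates 1, 2, 3, 77 and 79 had 17.6, 20.5, 14.8, 11.9 and 30.2 CPM of Cfb. Adult M-MDSC replicates 1, 3 and 28 had 77.9, 32.4 and 40.0 CPM. Each adult library lay above each newborn library, although the highest newborn library (30.2 CPM) and the lowest adult library (32.4 CPM) were close. The log2 difference was -1.35 ± 0.62, with -1.65 within batch 1 and -0.84 within batch 2.

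PMN-MDSC had little Cfb, and the counts behind it were few in batch 1. Newborn PMN-MDSC replicates 2, 3, 37, 38 and 39 had 2.74, 4.76, 1.50, 0.283 and 2.78 CPM. Adult PMN-MDSC had a lowest value of 0.600 CPM, from 1 count with an exact 95% interval of 0.0152 to 3.34 CPM, a median of 4.70 CPM and a highest value of 11.2 CPM. The groups overlapped, with a log2 difference of -1.47 ± 0.60 that was -0.56 within batch 1 and -1.97 within batch 2, and -1.98 without the batch 1 partners. Intervals of this kind cover counting error only. Against PMN-MDSC of the same age, M-MDSC had 8.81-fold more Cfb in newborns (log2 difference 3.14 ± 0.63) and 8.08-fold more in adults (3.01 ± 0.61), and no M-MDSC library of either age overlapped the PMN-MDSC libraries of that age. Means ordered from adult M-MDSC (50.1 ± 24.4 CPM, n = 3) through newborn M-MDSC (SD 7.00 CPM, n = 5) and adult PMN-MDSC (5.48 ± 4.12 CPM, n = 6) to newborn PMN-MDSC (2.41 ± 1.67 CPM, n = 5), each ± SD, and only the PMN-MDSC neighbours overlapped.

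Cd55, the gene of decay accelerating factor, was lower in newborns in both cell types, and 4 of 5 newborn M-MDSC libraries held 4 or fewer of its counts. Cd55 (ENSMUSG00000026399) lies on the minus strand of chr1:130439027-130462744, with the antisense gene Gm16083 overlapping it and a close paralog, Cd55b, elsewhere in the table. Cd55b did not pass the filter, at a total of 12 counts in newborn and 118 counts in adult PMN-MDSC. Gm16083 had at most 1.08 CPM in any library. In newborn M-MDSC its 23 counts (0.926 CPM) lay in 1 library, replicate 79 by its size, which held 39 counts of Cd55 (1.57 CPM). Newborn PMN-MDSC replicates 2, 3, 37, 38 and 39 had 39.9, 36.8, 58.5, 40.6 and 49.2 CPM of Cd55. Adult PMN-MDSC had a lowest value of 87.7 CPM, a median of 115 CPM and a highest value of 190 CPM. All newborn libraries lay below all adult libraries, at a log2 difference of -1.54 ± 0.45. Within batches the difference was -1.75 and -1.34, and it was -1.36 without the batch 1 partners.

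Newborn M-MDSC replicates 1, 2, 3, 77 and 79 had 4, 1, 2, 0 and 39 counts of Cd55, which came to 1.86, 0.641, 0.927, 0 and 1.57 CPM. By the rule that a count of 0 allows 3 counts, the 0 of replicate 77 allows up to 0.141 CPM, and its exact 95% interval ends at 0.173 CPM. The 1 count of replicate 2 has an exact 95% interval of 0.0162 to 3.57 CPM. Adult M-MDSC replicates 1, 3 and 28 had 6.03, 38.2 and 26.4 CPM. No libraries overlapped, and the log2 difference was -4.77 ± 0.69, with -4.19 within batch 1 and -4.92 within batch 2. Its size rested on single libraries: it was -6.02 without newborn replicate 79 and -4.13 without newborn replicate 77. The age difference in M-MDSC minus that in PMN-MDSC was -3.23 ± 0.81. M-MDSC lay below PMN-MDSC by log2 differences of -5.65 ± 0.66 in newborns and -2.43 ± 0.58 in adults, without overlap in either. Means ordered from adult PMN-MDSC (130 ± 44.5 CPM, n = 6) through newborn PMN-MDSC (SD 8.86 CPM, n = 5) and adult M-MDSC (23.5 ± 16.3 CPM, n = 3) to newborn M-MDSC (0.999 ± 0.741 CPM, n = 5), each ± SD, and of these neighbours only newborn PMN-MDSC and adult M-MDSC overlapped.

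Cd55 moved with the B cell markers in adult PMN-MDSC: the 6 libraries fell in the same order by Cd55 and by the summed B cell markers. All 6 belong to the matched pairs named above, so they may not be 6 separate sources. The 3 adult M-MDSC libraries also fell in the same order by both, and those of newborn M-MDSC did not. In newborn PMN-MDSC the orders differed too: replicate 37 had the highest Cd55 (58.5 CPM) at a B cell marker sum of 688 CPM, below that of replicate 39 (1017 CPM). As a share of that sum, Cd55 was 4.84 to 8.51% in newborn and 2.00 to 2.78% in adult PMN-MDSC, and 0 to 0.880% in newborn and 0.575 to 1.53% in adult M-MDSC. All 12 B cell markers were lower in newborns in both cell types by edgeR's quasi-likelihood test. None of these markers was at 0 in any group. The part of B cell RNA in the Cd55 differences was not tested.

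**Figure D2:**
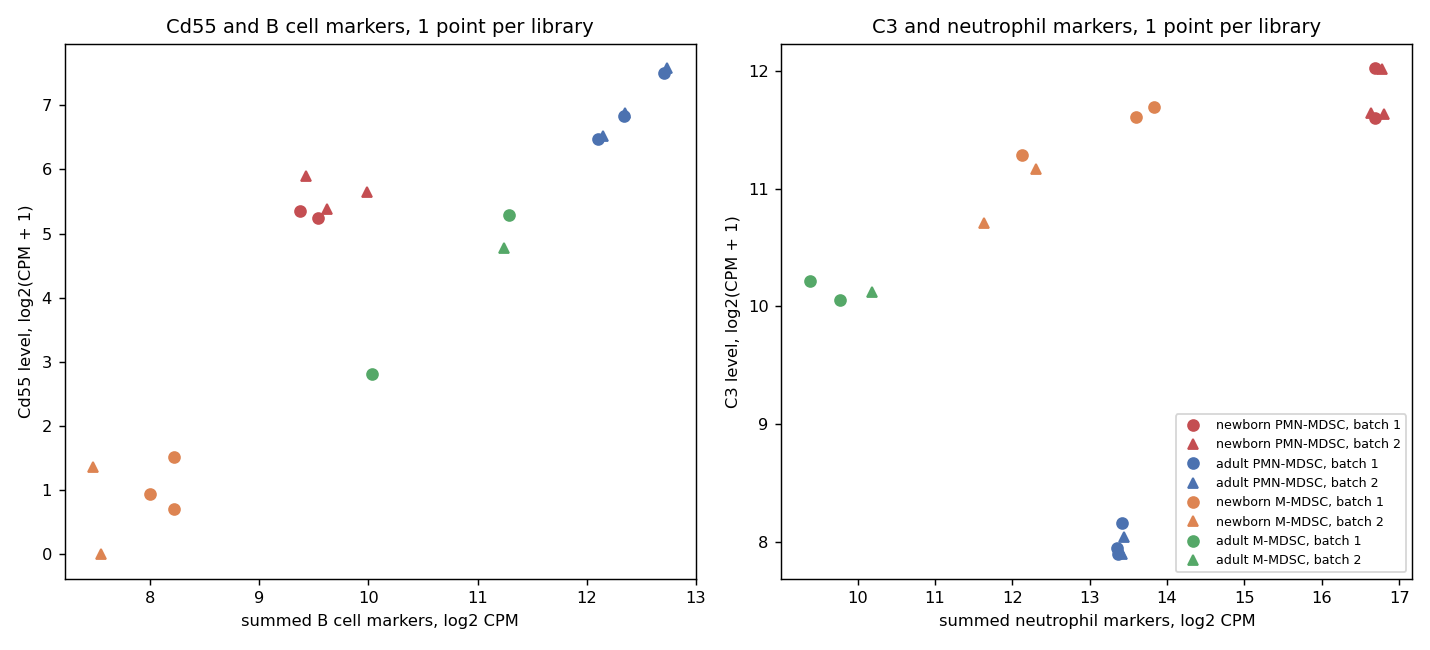
Left, Cd55 level against summed B cell markers; right, C3 level against summed neutrophil markers; each point is 1 library, on log2 axes, with colour for group and shape for batch. Newborn PMN-MDSC sit at 662 to 1017 CPM of B cell markers and adult PMN-MDSC at 4389 to 6828 CPM, with Cd55 higher in the adult libraries.

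Cr1l, the gene of Crry, varied least of the 5 in its group means. Cr1l (ENSMUSG00000016481) lies on the minus strand of chr1:195097382-195131586. Newborn PMN-MDSC replicates 2, 3, 37, 38 and 39 had 64.6, 61.4, 73.8, 72.2 and 71.9 CPM. Adult PMN-MDSC had a lowest value of 43.8 CPM, a median of 52.5 CPM and a highest value of 68.1 CPM. The groups overlapped and the log2 difference was 0.32 ± 0.22, with 0.41 without the batch 1 partners. Newborn M-MDSC replicates 1, 2, 3, 77 and 79 had 58.0, 40.4, 62.1, 20.8 and 48.3 CPM. Adult M-MDSC replicates 1, 3 and 28 had 39.5, 41.5 and 55.3 CPM. Their log2 difference was -0.01 ± 0.27, from 0.40 within batch 1 and -0.60 within batch 2. Means of all 4 groups fell between 45.4 and 68.8 CPM.

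Across the members, replicate 77 of newborn M-MDSC was the lowest of its group for all 5 genes. Counting libraries that did not overlap between ages, 2 of 5 members (C3 and Cd55) stood apart in PMN-MDSC and 3 of 5 (C3, Cfb and Cd55) in M-MDSC. Over all 12943 tested genes the same held for 51.4% in PMN-MDSC and 23.1% in M-MDSC, and since these contrasts were in view when the members were chosen, nothing is read from the counts. Between cell types without overlap were C3, Cfb and Cd55 in adults (3 of 5, with 29.7% of all genes) and Cfb and Cd55 in newborns (2 of 5, with 38.4%).

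Per kilobase of exon, the level of C3 exceeded those of the other members in newborn PMN-MDSC, newborn M-MDSC and adult M-MDSC, and Cfp exceeded it in adult PMN-MDSC. C3 reached 691 CPM per kb in newborn PMN-MDSC and Cfp 181, against 48.8 for C3 and 122 for Cfp in adult PMN-MDSC. In M-MDSC, C3 reached 502 CPM per kb in newborns, with Cfp libraries at 44.4 to 161, against 218 for C3 and 49.3 to 84.7 for Cfp in adults. The per-kilobase ratio of C3 to the Crry gene Cr1l had a median of 96.7 in newborn and 9.32 in adult PMN-MDSC, and of 101 in newborn and 51.4 in adult M-MDSC. The corresponding ratio of Cd55 to Cr1l had a median of 1.32 in newborn and 4.17 in adult PMN-MDSC, and of 0.0338 in newborn and 1.02 in adult M-MDSC. So in newborn M-MDSC Cd55 was far below Cr1l per kilobase, while in adult PMN-MDSC it was above it.

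Likeness of patterns was measured as the root mean square distance of centred log2 CPM over the 19 libraries, among 11461 named genes. C3 lay nearest to Ethe1 (0.34), Paqr7 (0.40) and Rps6ka1 (0.46). Cd55 had no gene as near, its closest being Cd5l (0.79), Ccr3 (0.82) and Asb2 (0.84), of which Cd5l stands on the splenic macrophage and Ccr3 on the eosinophil marker list. Cfb had the most distant neighbours, Bag3 (0.97), Pid1 (0.99) and Cdc42bpb (1.00). Cfp was nearest to Arpc3, Wbp2 and Tmsb4x (0.31 to 0.32), and Cr1l to Synrg, Casc3 and Btk (0.24 to 0.26). Among the members, Cfp and Cr1l were most alike (0.43) and Cfb and Cd55 least (4.28). Distances depend on depth and on libraries shared by all genes.

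**Figure D3:**
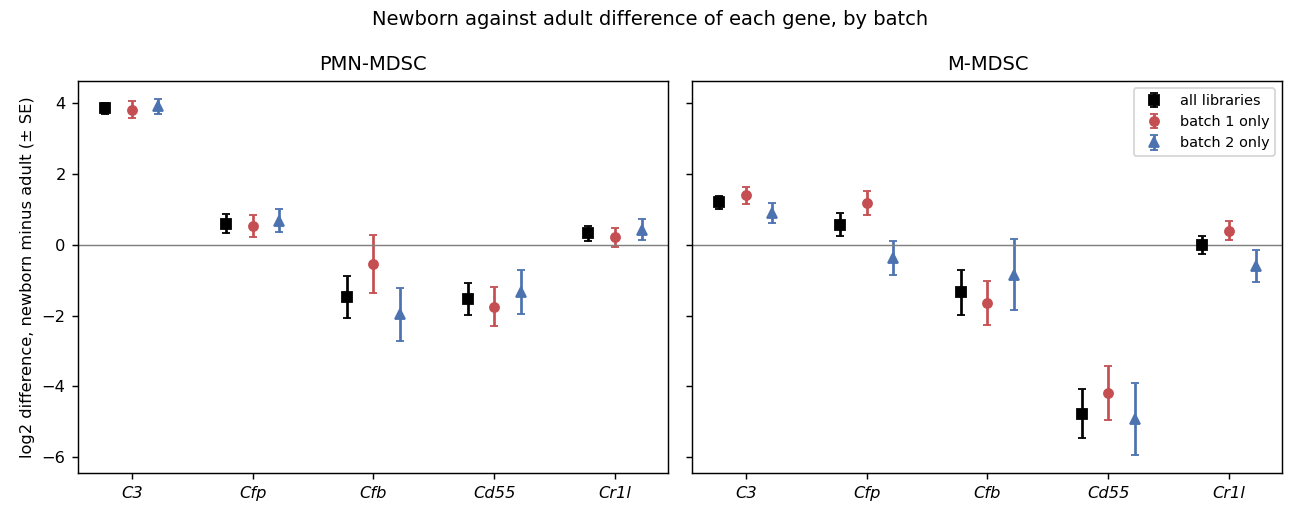
Fitted log2 difference, newborn minus adult, with its SE, for each gene in PMN-MDSC (left) and M-MDSC (right); squares use all libraries, circles batch 1 and triangles batch 2. C3 lies above 0 and Cd55 below 0 in each setting and cell type, while Cfp and Cr1l in M-MDSC change sign between batches.

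The other genes of the system were taken as a list of 46, all in the table, of which 21 passed the filter. Those that did not included most lectin pathway recognition proteins and proteases (Mbl1, Mbl2, Masp1, Masp2, Colec10 and Colec11), factor D (Cfd), and the terminal components C7, C8a, C8b, C8g, C9 and Hc, the gene of C5. Of the 21, edgeR's quasi-likelihood test called 4 higher and 3 lower in newborn PMN-MDSC, with 14 not called, where 47.7% of all genes were called, 27.1% higher and 20.5% lower. The median log2 difference of the 21 was 0.01, against -0.05 over all genes tested. In M-MDSC 2 were higher and 8 lower in newborns, with 11 not called, where 30.2% of all genes were called, 15.9% higher and 14.3% lower, and the median was -1.70, against 0.01 over all genes. For the age difference in M-MDSC minus that in PMN-MDSC, 7 of the 21 were called lower (C1qb, C1qc, Fcna, Fcnb, C6, Itgam and Itgb2) and 14 were not called, where 18.1% of all genes were called, 6.61% higher and 11.5% lower.

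Fcnb, encoding ficolin B, a lectin pathway recognition protein made by myeloid cells, rose most. Fcnb averaged 438 ± 59.7 CPM in newborn (SD, n = 5) and 4.85 ± 2.11 CPM in adult PMN-MDSC (SD, n = 6), a log2 difference of 6.48 ± 0.38 with an edgeR adjusted p of 1.9e-10. Newborn M-MDSC averaged 435 ± 202 CPM (n = 5, SD) and adult M-MDSC 19.5 ± 8.68 CPM (n = 3, SD), a difference of 4.38 ± 0.46 with an edgeR adjusted p of 1.1e-06. No newborn library overlapped an adult library in either cell type. The neutrophil marker sums given above ran beside Fcnb in M-MDSC only. Among newborn M-MDSC, replicates 2 and 3 had the highest Fcnb (722 and 555 CPM) and the highest sums, and replicate 77 had the lowest of both (215 CPM of Fcnb). The adult M-MDSC libraries fell in the same order by both. In adult PMN-MDSC, replicate 33 had the highest sum (11153 CPM) and the lowest Fcnb (2.34 CPM). In newborn PMN-MDSC, replicate 37 had the highest sum (114218 CPM) at 383 CPM of Fcnb, below the 506 CPM of replicate 38. The part of these markers was not tested.

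Itgam and Itgb2, the 2 chains of complement receptor 3, rose in newborn PMN-MDSC and were not called in M-MDSC. Itgam, the gene of CD11b, a protein by which the cells were isolated, averaged 3746 ± 312 CPM in newborn (SD, n = 5) and 582 ± 42.2 CPM in adult PMN-MDSC (SD, n = 6), a log2 difference of 2.70 ± 0.13 (edgeR adjusted p 1.2e-11). Itgb2 averaged 2315 ± 339 CPM in newborn and 579 ± 85.6 CPM in adult PMN-MDSC, a difference of 2.00 ± 0.16 (edgeR adjusted p 1.1e-08). In M-MDSC Itgam averaged 767 CPM in newborns and 693 CPM in adults. Neutrophil markers were called higher for 10 of 12 genes in newborn PMN-MDSC and lower for 1 (Csf3r), and their part in these differences was not tested.

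Of the C5a receptor genes, only C5ar2 was called with age, and they were not tested against each other. C5ar2, the gene of the second C5a receptor, was higher in newborn PMN-MDSC by 0.83 ± 0.26 (edgeR adjusted p 0.0143) and in newborn M-MDSC by 1.84 ± 0.36 (edgeR adjusted p 0.00084). The PMN-MDSC call for C5ar2 was lost within batch 1, without the batch 1 partners, with upper-quartile scaling and with the replicate block (edgeR adjusted p 0.141, 0.0712, 0.0680 and 0.140). C5ar1, the main signalling receptor of C5a, was not called in either age comparison. Its log2 differences were 0.47 ± 0.37 (SE) in PMN-MDSC and 0.17 ± 0.47 in M-MDSC. C5ar1 averaged 432 ± 53.8 CPM in newborn and 314 ± 115 CPM in adult PMN-MDSC (SD, n = 5 and 6). In M-MDSC it averaged 46.2 CPM in newborns and 38.8 CPM in adults. C3ar1, the receptor of C3a, stayed at 1.78 ± 0.78 CPM in newborn and 1.89 ± 1.32 CPM in adult PMN-MDSC and was not called.

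Genes of recognition and lysis that fell in newborn M-MDSC were C1qa, C1qb and C1qc, which encode the 3 chains of C1q and are known in the spleen as macrophage genes, C2, Fcna (ficolin A) and C6, a part of the membrane attack complex. C1qb averaged 4.50 ± 1.35 CPM in newborn (SD, n = 5) and 32.7 ± 18.8 CPM in adult M-MDSC (SD, n = 3), a log2 difference of -2.88 ± 0.37 (edgeR adjusted p 1.3e-05). The log2 differences were -3.08 for C1qa, -3.60 for C1qc, -2.50 for Fcna and -2.18 for C2. The libraries of C1qc overlapped between ages. With only the M-MDSC libraries in the fit, C1qa, C1qc, Fcna and C2 were not called (edgeR adjusted p 0.173, 0.101, 0.215 and 0.291), and C1qa was not called within batch 1 (0.0852). The C2 call was also lost within batch 2, with the replicate block and without the batch 1 partners (edgeR adjusted p 0.131, 0.0769 and 0.0888), and without adult replicate 1, adult replicate 28 or newborn replicate 2 (edgeR adjusted p 0.0843, 0.0598 and 0.0505). C6 had 6 counts in 1 of 5 newborn M-MDSC libraries, against 212 counts in all 3 adult libraries, and was called lower (edgeR adjusted p 1.2e-05). In PMN-MDSC C6 averaged 6.21 CPM in newborns and 44.9 CPM in adults, a difference of -2.95 ± 0.46 (edgeR adjusted p 3.0e-05).

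Beside these genes, the summed splenic macrophage markers were 189 to 244 CPM in newborn and 515 to 667 CPM in adult M-MDSC, with 5 of 10 called lower (Vcam1, Cd5l, Spic, Mertk and Siglec1). C1qb as a share of that sum was 1.18 to 2.74% in newborn and 2.30 to 8.69% in adult M-MDSC, and no marker of the list was at 0 in either group. In PMN-MDSC the sums were 1764 to 2106 CPM in newborns and 1498 to 3304 CPM in adults, and C1qa, C1qb and C1qc were not called. The part of macrophage RNA in these differences was not tested.

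Cr2, a complement receptor gene of B cells and follicular dendritic cells, fell in newborns in both cell types, to 8.75 ± 3.53 CPM in newborn PMN-MDSC against 337 ± 112 CPM in adult PMN-MDSC (SD, n = 5 and 6; log2 difference -5.22 ± 0.56, edgeR adjusted p 3.2e-07). In M-MDSC it fell to 2.03 ± 2.57 CPM in newborns against 62.6 ± 46.4 CPM in adults (SD, n = 5 and 3; edgeR adjusted p 1.9e-05). Itgax, the CD11c chain of complement receptor 4, fell in both cell types, with log2 differences of -2.33 in PMN-MDSC and -2.93 in M-MDSC. Cr2, Itgax and the B cell marker sums given above were all lower in newborns in both cell types. As a share of that sum, Cr2 was 0.909 to 1.45% in newborn and 5.14 to 7.21% in adult PMN-MDSC. In M-MDSC the share was 0 to 2.21% in newborns and 1.73 to 4.63% in adults. Within adult PMN-MDSC, replicates 3 and 34 had the highest sums (6702 and 6828 CPM) and the lowest Itgax (84.0 and 84.5 CPM). In adult M-MDSC, replicate 1 had the lowest of both (1049 CPM of markers and 19.7 CPM of Itgax). Summed over 8 dendritic cell markers, levels were 19.9 to 25.9 CPM in newborn and 41.8 to 54.8 CPM in adult PMN-MDSC, and 12.2 to 80.3 CPM in newborn and 64.7 to 114 CPM in adult M-MDSC, with 1 of the 7 tested called lower in each cell type. Of 12 T and NK cell markers, 4 were called lower in newborn PMN-MDSC and 11 in newborn M-MDSC. The part of these markers was not tested. Itgax in PMN-MDSC was not called within batch 2 or without the batch 1 partners (edgeR adjusted p 0.0551 and 0.0680). In M-MDSC it was not called with only the M-MDSC libraries in the fit (edgeR adjusted p 0.113).

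Among regulators, Cd46 had 2 counts over the 5 newborn M-MDSC libraries and 13 counts over the 3 adult M-MDSC libraries and was not called (edgeR adjusted p 0.0501). Its side of the threshold changed with the setting: it was called by the DESeq2 Wald test (adjusted p 0.0056) and in edgeR without adult M-MDSC replicate 28, newborn replicate 2 or newborn replicate 3 (adjusted p 0.0053, 0.0319 and 0.0424). Against PMN-MDSC, M-MDSC had 13 of the 21 genes called lower and 1 higher in newborns by edgeR's quasi-likelihood test. In adults 8 were called lower and 2 higher, among the latter Fcnb. Of all genes, 42% (18.7% higher and 23.4% lower) were called in newborns and 29.1% (16.7% higher and 12.5% lower) in adults.

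**Figure D4:**
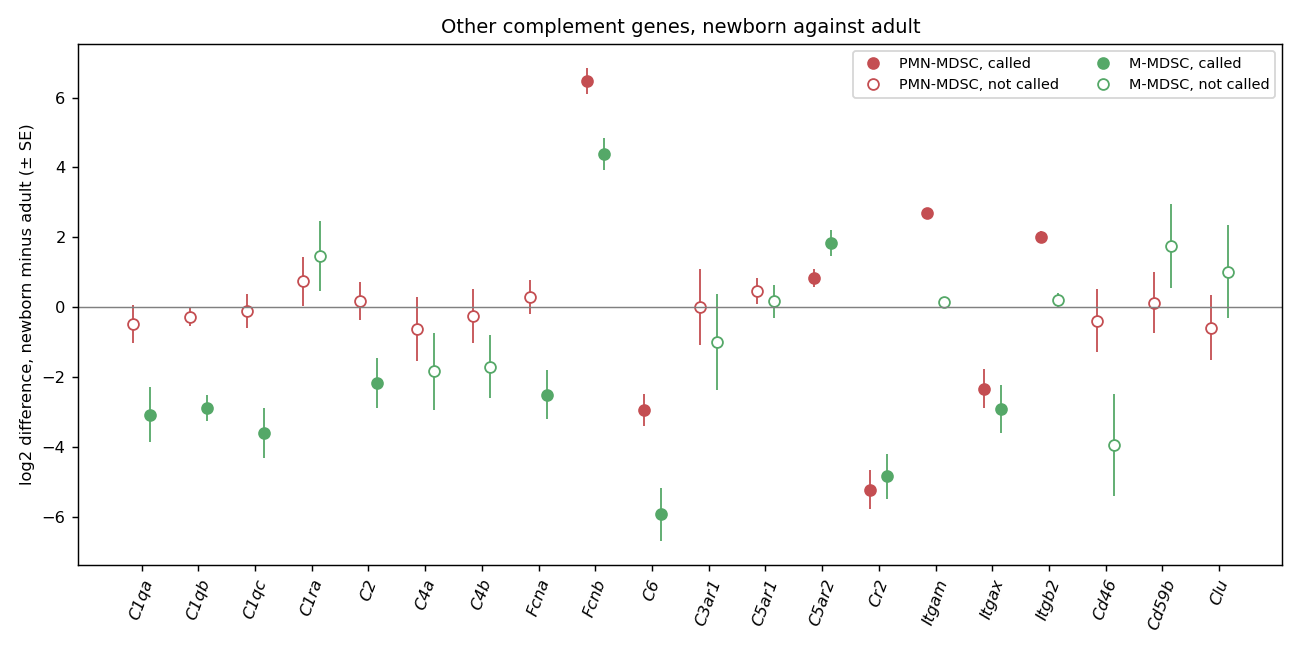
Log2 difference, newborn minus adult, with its SE, of the other complement genes that passed the filter and are reported here, in PMN-MDSC and M-MDSC; filled points were called by edgeR's quasi-likelihood test at an adjusted p under 0.05. Fcnb is the highest point in both cell types (6.48 and 4.38) and Cr2 and C6 are lower in both.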

How the data were processed

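RNA was measured in 19 libraries, grouped by the cell type and age in the labels, with batch and replicate number also taken from the labels. The values are estimated counts, which the authors deposited without normalization in a single table of whole numbers. RSEM 1.2.3, the mouse build mm10 and DESeq2, without a role, are named per the submitters' processing notes, while no aligner or annotation is named there (not given in the sources used here). Per the labels' protocols, a total RNA kit was used and single-end reads were 50 bp long. Rounding the estimated counts changed no value. RSEM divides reads among similar genes, so close paralogs such as C4a and C4b are uncertain. Whether counting used strand is not stated, so overlapping antisense genes are uncertain too.

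Counts were fitted with edgeR 4.0.16 (quasi-likelihood test) in R 4.3.3, with 1 coefficient per group and 1 for batch over all 19 libraries, TMM scaling and filterByExpr on the groups. The filter kept 12943 genes, and 14 residual degrees of freedom remained. Adjusted p-values are Benjamini-Hochberg values over all genes of a comparison, called under 0.05. Alternatives used limma 3.58.1 and DESeq2 1.42.0. A count of 0 allows 3 counts. Gene positions and exon lengths came from GENCODE M21 (GRCm38) by identifier. The members and all gene lists were chosen with earlier results of these data known. All 5 members are named, the listed genes called with age are given by values, and the 3 nearest genes by distance were taken for each member. A listed gene is not reported here by name.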

Additional observations from a re-analysis of the deposited data

Results flagged for a closer look

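Cfp in newborn PMN-MDSC replicate 39 was the lowest of its group at 262 CPM, with the nearest other library at 322 CPM. C6 in newborn M-MDSC replicate 79 was 0.242 CPM while the other 4 libraries had 0 CPM. These came from 51 groups of 4 to 10 libraries examined for a library far from the rest, where chance alone marks about 1 in 20.

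The age difference in M-MDSC minus that in PMN-MDSC was called by edgeR's quasi-likelihood test for 7 of the 21 other complement genes, where 18.1% of all genes were called. These log2 values were -2.61 for C1qb, -3.50 for C1qc, -2.79 for Fcna, -2.09 for Fcnb, -2.98 for C6, -2.55 for Itgam and -1.80 for Itgb2. With batch 1 alone, edgeR adjusted p was 0.0794 for C1qb, 0.228 for C1qc, 0.121 for Fcna, 0.211 for Fcnb and 0.352 for C6, and none of these 5 was called with the replicate block either. Without the batch 1 partners C1qc, Fcna and C6 were not called (edgeR adjusted p 0.0907, 0.151 and 0.0503), C6 was not called by limma-voom (adjusted p 0.103), and Fcna was not called with batch 2 alone (0.0640). Itgam and Itgb2 were called under every alternative that gave a value. Without adult M-MDSC replicate 28 the edgeR adjusted p was 0.0714 for Fcna, 0.0612 for Fcnb and 0.149 for C6. Without newborn M-MDSC replicate 79 it was 0.0546 for Fcna, and without newborn M-MDSC replicate 77 it was 0.0692 for C6.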

How the results depend on the processing

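The age differences of C3 and Cd55 kept their direction under every alternative run. C3 in PMN-MDSC was 3.60 with upper-quartile scaling, which shifted the all-gene median by -0.24, and Cfp in M-MDSC was -0.38 with batch 2 alone. The count of other complement genes called with age in M-MDSC was 4 (2 higher and 2 lower) with only the groups compared. Calls over all genes fell in that fit too, to 1267 of 10814, against 3910 of 12943 in the main fit. The count for the difference of the age effects was 2 with batch 1 alone, 2 with the replicate block and 4 without the batch 1 partners of matched libraries. Over all genes, these fits called 408 of 11979, 609 of 11979 and 968 of 15926 for that difference, against 2344 of 12943 in the main fit. With each library left out in turn the counts were 7 to 8 for age in PMN-MDSC, 9 to 12 for age in M-MDSC, 6 to 9 for the difference, 13 to 16 for M-MDSC against PMN-MDSC in newborns and 9 to 13 in adults. Deviations of libraries with the same replicate number correlated at -0.034 and 0.035 between ages in PMN-MDSC and 0.23 and -0.008 in M-MDSC, and between M-MDSC and PMN-MDSC at -0.27 and -0.097 in newborns and 0.47 and 0.50 in adults. The adult values come near the 0.518 of the matched pair newborn 37 and 2. Newborn PMN-MDSC and adult M-MDSC had 2 batch 1 libraries each, whose deviations are mirror images. Each comparison includes 1 of these groups, so its 2 values are not independent and cannot settle a pairing. The numbers were not taken to pair the samples in the main fit. The replicate block gave 6 calls with age in PMN-MDSC, 9 with age in M-MDSC and 11 between the cell types at each age. Of all 11979 genes tested, it called 3663 with age in PMN-MDSC and 3026 with age in M-MDSC. Between the cell types it called 3615 in newborns and 1588 in adults. Its log2 age differences were -0.21 for Cfb in PMN-MDSC and -3.97 for Cd55 in M-MDSC. The cause of these shifts was not tested. Depth limits Cfb in PMN-MDSC and Cd55 in newborn M-MDSC, where single batch 1 libraries held 1 to 4 counts.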

Other observations

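Hc, the gene of C5, did not pass the filter, with 105 counts over all 5 newborn PMN-MDSC libraries and 22 counts over 4 of 6 adult PMN-MDSC libraries, against 0 counts in the newborn and the adult M-MDSC libraries. Vsig4, a receptor for C3 fragments on tissue macrophages, had 2 counts in newborn and 71 counts in adult PMN-MDSC. Serping1, the gene of C1 inhibitor, had 1 count in newborn and 47 counts in adult PMN-MDSC. Most of these adult counts, 58 for Vsig4 and 36 for Serping1, lay in replicate 33, the deepest library. These genes were picked after their values were seen and were not tested.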
